A study of Rattus norvegicus with 6 samples.

Results

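The nuclear genes of the mitochondrial respiratory chain and the ATP synthase were compared between replicating and quiescent rat β-cells. They were taken by name from the gene names of the array: names beginning Ndufa, Ndufb, Ndufc, Ndufs or Ndufv for complex I, Sdha to Sdhd for complex II, names beginning Uqcr and Cyc1 for complex III, names beginning Cox4 to Cox8 for complex IV and names beginning Atp5 for complex V. This gave 91 of the 36174 gene names on the array, read by 134 spots: 44 genes of complex I, 4 of complex II, 9 of complex III, 17 of complex IV and 17 of complex V. Of these, 77 encode subunits. The other 14 were taken in by their names and are assembly factors such as Ndufaf1, relatives such as Ndufa10l1 and Ndufa4l2, the pseudogene Cox6c-ps1, Cox7a2l, Atp5s, Atp5sl, and Ndufa4, which is now assigned to complex IV. Where a gene had several probes, the one brightest on average over the 6 arrays stood for it.

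Complexes I and II pass electrons from NADH and succinate to ubiquinone, complex III passes them on to cytochrome c, and complex IV hands them to oxygen. The proton gradient that complexes I, III and IV build drives complex V, the ATP synthase. In β-cells glucose is oxidised largely in mitochondria, and the ATP made there closes the ATP-sensitive potassium channels and so starts insulin secretion. Most subunits are encoded in the nucleus and the rest in the mitochondrial DNA, whose genes were not found under their names on this array and were not analysed here.

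Islets of young adult male Wistar rats were cultured overnight in low glucose with EdU, a thymidine analogue that marks newly made DNA. The dispersed cells were stained with the zinc dye Newport Green, fixed, and sorted for large, granular, dye-bright cells, which the study takes as β-cells. The study also stained sorted cells and counted most cells of both fractions as positive for insulin and C-peptide. EdU+ cells were the replicating and EdU- cells the quiescent fraction. Each of 3 islet preparations was pooled from 4 rats and gave 1 replicating and 1 quiescent sample, so that 6 arrays, all on 1 slide, entered the comparison and every replicate was a separate preparation. Values are deposited log2 intensities after background correction and quantile normalization, and a log2 ratio is the replicating minus the quiescent value, so that 1 is a 2-fold difference. No level of a respiratory chain gene was compared with that of another gene, because each probe has its own brightness. The sums of marker levels below add readings of different probes, and so follow the brightest of them.

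The 6 cell cycle genes used to check the labels (Mki67, Top2a, Cdk1, Ccnb1, Pcna, Mcm5) were higher in the replicating cells of every preparation. Quiescent array 2 stood apart: over all probes its correlation with the other arrays was 0.65 to 0.82, against at least 0.87 between the others, and 1583 of its spots were marked as outliers against 252 to 299 on the others. Quiescent array 1 was apart to a smaller degree. It correlated at 0.87 to 0.89 with the replicating arrays and quiescent array 3, which had at least 0.94 among themselves. On quiescent arrays 1 and 2, 96.4% and 98.4% of probes were well above background, against 80.8% to 87.3% on the others. The labelled cell type was checked against marker lists. The 9 β-cell markers found on the array were well above background on every array, and their summed linear level was 250326 to 318888 in replicating and 157302 to 350547 in quiescent cells, lowest on quiescent array 2. That sum is mostly Ins1 and Ins2. The log2 ratio was above 0 for 3 of the 9, Ins1, Ins2 and Iapp, and Mafa, a transcription factor of mature β-cells, was lower by the selection (log2 ratio -1.01 ± 0.35 SE). The ratios of Pdx1 (-0.76 ± 0.34 SE), Slc2a2 (-0.70 ± 0.41 SE) and Ucn3 (-0.60 ± 0.32 SE) were below 0 in every preparation without meeting it. By qPCR the study found Ins2 significantly lower in replicating cells, unlike the Ins2 ratio here. Markers of other cells were also present. The 10 fibroblast and stellate cell markers summed to 13250 to 38432 in replicating and 5049.6 to 6571 in quiescent cells, and the 6 α-cell markers to 22646 to 90650.5 and 5760.2 to 17573. The 6 acinar markers summed to 7370.2 to 80137 and 3555 to 41699.7, the 5 immune markers to 2459 to 3089 and 1371 to 1757, the 3 δ-cell markers to 1353 to 2068 and 393 to 1188, and the PP cell marker Ppy read 3836 to 7774 and 1661 to 3156. The 5 duct markers summed to 23731 to 28118 and 26057 to 39698.5, and the 5 endothelial markers to 2879 to 6764 and 3704 to 9624. The duct sum is mostly Sox9 and Krt7, and the α-cell sum mostly Gcg. Of the duct markers 1 of 5 had a log2 ratio above 0, Spp1 (2.09 ± 0.37 SE), higher by the selection, while Krt20 was at -1.75 ± 0.71 (SE). Of the α-cell markers 5 of 6 had a ratio above 0. The part of these other cells in the values below was not tested. In sorted fractions, fewer cells of a type and less RNA per cell cannot be told apart.

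Of the 91 respiratory chain genes, 88 were well above background on all 6 arrays, against 77.5% of all probes. The exceptions were Ndufs4, Cox7b2 and Cox8c. Among the 45598 probes of the array, the share that met the same condition is given in percent beside the counts. The mean log2 ratio was above 0 in 67 of the 91, against 44.6% of all probes. The size depended on the preparation. For the 91 genes the median log2 ratio was 0.26 in preparation 1, 0.77 in preparation 2 and -0.17 in preparation 3, where the medians of all probes were -0.02, -0.07 and -0.04. The ratio was above 0 for 66 genes in preparation 1 (49.2% of all probes), for 71 in preparation 2 (47.5%) and for 27 in preparation 3 (44.4%). A ratio of at least 1 was reached by 9 genes in preparation 1 (10.9%), by 41 in preparation 2 (21.6%) and by 0 in preparation 3 (2.82%). In preparation 2 a ratio of -1 or lower was seen in 6 genes (26%). In 19 genes the ratio was above 0 in all 3 preparations (15.4%), and in 10 it was below 0 in all 3 (20.5%).

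**Figure D1:**
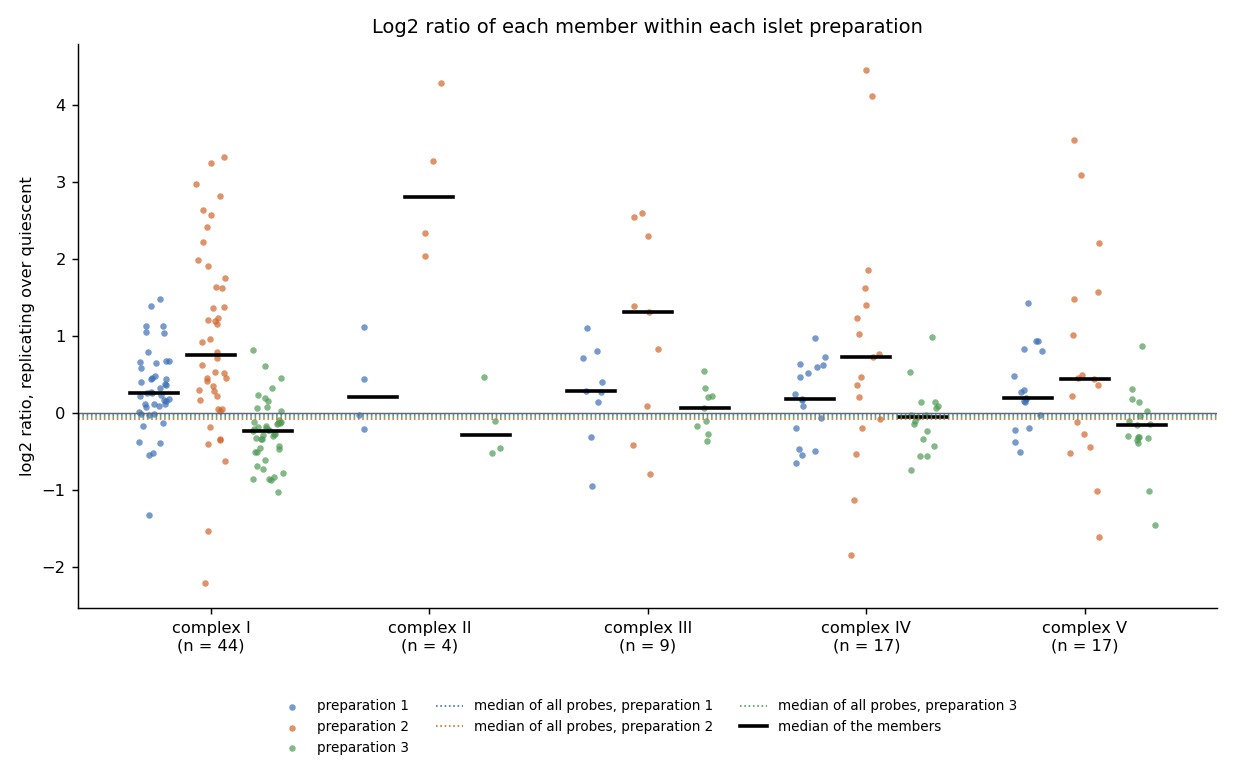
Log2 ratio of replicating over quiescent β-cells (y axis) for every member of complexes I to V (x axis), 1 point per gene and preparation, with black bars at the median of the members and dotted lines at the median of all probes. Preparation 2 spreads widest, from -2.20 for Ndufaf7 to 4.46 for Cox7c, and in preparation 3 no gene reaches 1.

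The spread in preparation 2 came with its quiescent array. The median log2 level of the 91 genes was 11.22, 11.08 and 11.56 in the replicating cells of preparations 1, 2 and 3, and 11.08, 9.67 and 11.69 in the quiescent cells. Quiescent array 2 gave the lowest value of all 6 arrays for 65 of the 91 genes, against 34.6% of all probes, and the highest for 11, against 34.3% of all probes. Quiescent array 3 gave the highest value for 42 (18.2% of all probes). Without preparation 2 the median log2 ratio of the 91 genes was -0.000913, and 45 of them had a mean ratio above 0, against 43.4% of all probes.

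**Figure D2:**
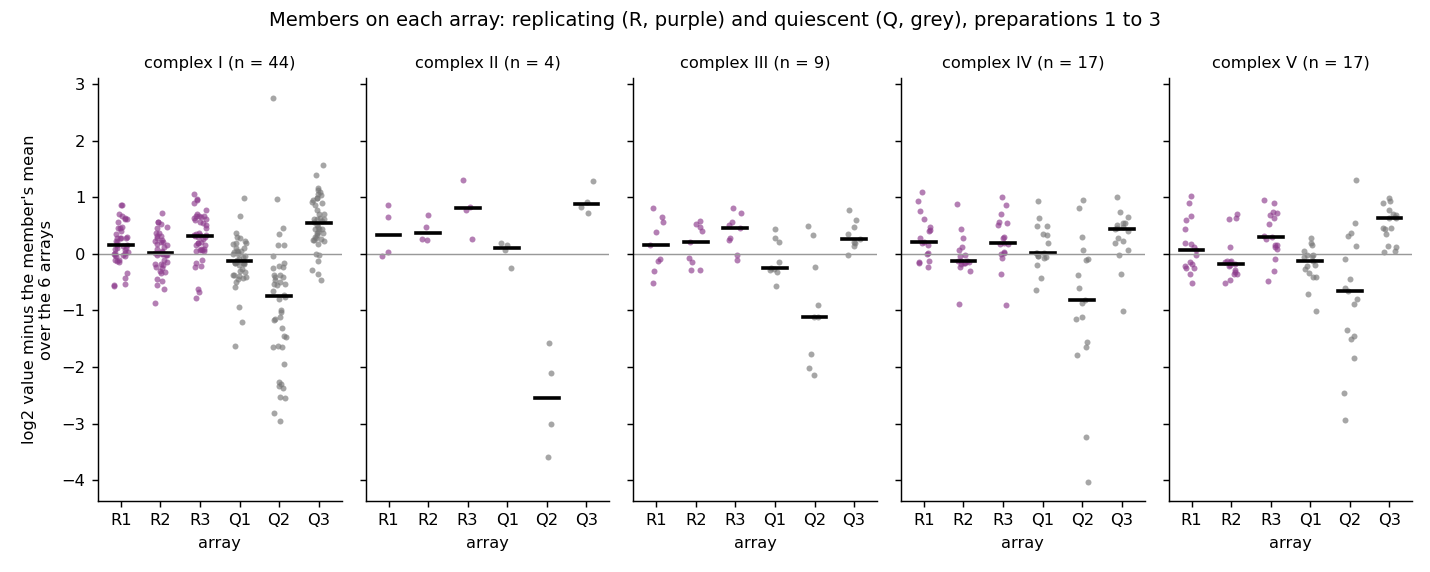
Log2 value of each member on each array minus that member's mean over the 6 arrays (y axis), for replicating arrays R1 to R3 (purple) and quiescent arrays Q1 to Q3 (grey) in each complex. Black bars are medians. The points of quiescent array 2 reach furthest down in every complex, while those of quiescent array 3 lie mostly above 0.

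No gene of the chain passed an adjusted p of 0.05 in limma with the preparation as a block. The smallest adjusted p among the 91 was 0.483, and 0.105 among all 45598 probes, of which 0 passed (0% of all probes) and 4276 (9.38%) had an unadjusted p of at most 0.05. Of the 91, 7 had such a p, 6 higher in replicating cells (4.9% of all probes) and 1 lower (4.48%). The selection used in the study asks for an unadjusted p of 0.05 or less together with a difference of 2-fold or more in either direction. By that selection 6 of the 91 genes were higher in replicating cells, or 6.59% of the genes against 4.38% of all probes. These were Ndufa12, Ndufa9, Sdhd, Uqcrc2, Atp5b and Atp5c1. In the other direction 1 gene, Ndufc1, was lower, or 1.1% against 4.14% of all probes. The groups did not overlap for 7 genes that were higher in replicating cells, against 8.89% of all probes, and for 3 that were lower, against 7.11%. Without preparation 2, 0 of the 91 genes met the selection in either direction, against 3.18% of all probes higher and 1.78% lower in that fit. Without preparation 1, 0 were higher (1.12% of all probes) and 1 was lower (0.143%). Without preparation 3, 14 were higher (10.8%) and 1 was lower (12.1%). Without the preparation as a block, 2 were higher (4.09%).

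Complex I, the NADH dehydrogenase, held 44 genes with a median log2 ratio of 0.24, and of 0.26, 0.76 and -0.23 in preparations 1, 2 and 3. In this complex 34 ratios were above 0, 7 were above 0 in all 3 preparations and 4 were below 0 in all 3. Ndufa12, an accessory subunit, had the highest ratio of the complex. It read 12.90, 12.49 and 13.10 in the replicating and 11.77, 9.67 and 12.27 in the quiescent cells of preparations 1, 2 and 3. Every replicating array lay above every quiescent one, and quiescent array 2 was the lowest. The log2 ratio was 1.59 ± 0.49 (SE), a 3.01-fold difference with an unadjusted limma p of 0.022. Without preparation 2 the log2 ratio was 0.98, just under the size the selection asks for, with an unadjusted limma p of 0.044.

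Ndufa9, an accessory subunit near the ubiquinone site, read 10.84, 10.25 and 10.95 in replicating and 9.80, 7.68 and 10.34 in quiescent cells. It was higher in the replicating cells of each preparation, but replicating array 2 fell below quiescent array 3. With an unadjusted limma p of 0.032, its log2 ratio was 1.41 ± 0.48 (SE). Ndufc1, a small membrane subunit, went the other way, at 10.50, 10.30 and 10.07 in replicating and 11.83, 11.82 and 10.56 in quiescent cells. All 3 replicating values lay below all 3 quiescent values, and unlike most of the chain it was not low on quiescent array 2. The log2 ratio of Ndufc1 was -1.11 ± 0.37 (SE), with an unadjusted limma p of 0.027.

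The core subunits that carry out the electron transfer differed among themselves. Ndufv1, which holds the FMN and binds NADH, read 11.49, 11.87 and 12.22 in replicating and 11.62, 12.48 and 12.45 in quiescent cells. Its value was lower in the replicating cells of each preparation, but the groups overlapped (log2 ratio -0.32 ± 0.32 SE, limma, adjusted p = 0.63). Its partner Ndufv2, an iron-sulfur protein, read 12.56, 12.24 and 12.94 against 12.34, 9.82 and 13.06, so that only quiescent array 2 stood out. The log2 ratio of Ndufv2 was 0.84 ± 0.58 (SE, limma, adjusted p = 0.52). Ndufs1, the largest subunit and also an iron-sulfur protein, read 8.0, 8.08 and 7.86 against 6.61, 6.08 and 8.64. It was higher in the replicating cells of preparations 1 and 2 and lower in those of preparation 3 (log2 ratio 0.87 ± 0.61 SE, limma, adjusted p = 0.53). Ndufa4 and its relative Ndufa4l2, which is known as a hypoxia-induced gene, had log2 ratios of 0.46 ± 0.66 and 0.37 ± 0.36 (SE), and neither met the selection. In preparation 3 Ndufa4 had a ratio of -1.01, the lowest of the complex there.

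Complex II, the succinate dehydrogenase, is the only complex of the chain whose subunits are all nuclear, and all 4 were measured. All 4 read lowest on quiescent array 2. Their median log2 ratio was 2.81 in preparation 2, against 0.21 in preparation 1 and -0.27 in preparation 3, and without preparation 2 the median over the mean ratios was -0.05. Sdhd, 1 of the membrane anchors, read 10.85, 10.25 and 11.28 in replicating and 9.73, 6.97 and 10.81 in quiescent cells. Within each preparation the replicating cells were higher, although the groups overlapped. The log2 ratio of Sdhd was 1.62 ± 0.61 (SE, 3.08-fold), with an unadjusted limma p of 0.043.

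The other membrane anchor, Sdhc, read 10.86, 10.90 and 10.99 in replicating and 10.41, 6.62 and 11.50 in quiescent cells. The 3 replicating values lay close together, and the quiescent values ran from far below to above them (log2 ratio 1.4 ± 0.96 SE, limma, adjusted p = 0.52). The iron-sulfur protein Sdhb read 10.88, 11.08 and 11.67 against 10.90, 8.74 and 11.76. The flavoprotein Sdha, the catalytic subunit, read 10.92, 11.43 and 11.23 against 11.12, 9.40 and 11.69. For both, the replicating cells of preparations 1 and 3 were slightly below the quiescent ones and only preparation 2 was above. The log2 ratios were 0.74 ± 0.59 for Sdhb and 0.46 ± 0.58 for Sdha (SE), and neither met the selection.

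Complex III, the cytochrome bc1 complex, was the only complex whose median log2 ratio was above 0 in every preparation, at 0.29, 1.32 and 0.06. That difference between complexes was not tested. In 5 of its 9 genes the ratio was above 0 in all 3 preparations. Uqcrc2, a core subunit of the matrix side, read 11.39, 11.16 and 11.30 in replicating and 10.28, 8.56 and 10.76 in quiescent cells. The groups did not overlap, and quiescent array 2 was lowest. Its log2 ratio was 1.42 ± 0.49 (SE, 2.67-fold), with an unadjusted limma p of 0.033. The other core subunit, Uqcrc1, read 9.41, 9.28 and 9.21 against 8.60, 6.98 and 9.0. Its groups did not overlap either, and its log2 ratio was 1.11 ± 0.49 (SE, limma, adjusted p = 0.48).

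The measured subunits that carry a haem or the iron-sulfur cluster were less apart. Uqcrfs1, the Rieske protein, read 8.27, 9.04 and 9.37 in replicating and 8.0, 7.66 and 9.04 in quiescent cells. It was higher within each preparation, but the preparations differed among themselves as much (log2 ratio 0.66 ± 0.38 SE, limma, adjusted p = 0.50). Cyc1, the cytochrome c1, read 10.75, 10.56 and 10.59 against 10.03, 9.24 and 10.95, with the order turned in preparation 3 (log2 ratio 0.56 ± 0.43 SE, limma, adjusted p = 0.55). Uqcr11, a small subunit, was the lowest of the complex at 12.65, 12.87 and 13.05 against 13.59, 13.66 and 13.14. All replicating values lay below all quiescent values, with a log2 ratio of -0.61 ± 0.35 (SE, limma, adjusted p = 0.50) on this probe.

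Complex IV, the cytochrome c oxidase, held the largest single ratio of all 91 genes and none that met the selection. Cox5a, a subunit of the matrix side, read 12.16, 12.10 and 12.22 in replicating and 11.18, 7.98 and 11.68 in quiescent cells. The replicating values were nearly equal and all above the quiescent ones, which spread over more than 3 log2 units. The log2 ratio of Cox5a was 1.88 ± 0.77 (SE, 3.67-fold), with an unadjusted limma p of 0.056 that just missed the selection. It was 0.98, 4.12 and 0.53 in preparations 1, 2 and 3. Over the 17 genes the median log2 ratio was 0.20, and 0.19, 0.72 and -0.05 by preparation.

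Several subunits of this complex exist as tissue isoforms, and the isoforms typical of liver and most other tissues were set beside those of muscle, lung and testis. Cox8a, the widely expressed form, read 14.24, 13.59 and 14.14 in replicating and 13.63, 11.97 and 14.16 in quiescent cells. The ratio was above 0 in preparations 1 and 2 and near 0 in preparation 3 (log2 ratio 0.74 ± 0.43 SE, limma, adjusted p = 0.50). The muscle form Cox8b had a log2 ratio of 0.40 ± 0.35 (SE). The testis form Cox8c was well above background on 0 of 3 replicating and 2 of 3 quiescent arrays, so no fold is given for it.

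Cox4i1, the general form of the subunit that binds ATP, had a log2 ratio of 0.05 ± 0.34 (SE) and the lung form Cox4i2 one of -0.43 ± 0.32 (SE). Cox4i2 read 9.79, 9.26 and 8.49 in replicating and 10.33, 9.45 and 9.04 in quiescent cells, lower in the replicating cells of each preparation with overlapping groups. Cox6a1, the liver form, had a log2 ratio of -0.05 ± 0.36 (SE). Cox6a2, the heart and muscle form and the lowest of the complex, read 9.87, 8.97 and 9.79 in replicating and 9.23, 10.81 and 10.52 in quiescent cells. Its order turned between preparation 1 and the other 2 (log2 ratio -0.65 ± 0.54 SE, limma, adjusted p = 0.58).

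Cox7a2, the liver form of another small subunit, read 13.60, 13.04 and 13.74 in replicating and 12.97, 12.01 and 13.64 in quiescent cells. It was higher within each preparation, by 0.62, 1.03 and 0.09 (log2 ratio 0.58 ± 0.35 SE, limma, adjusted p = 0.50). Cox7b had ratios of 0.74, 1.86 and 0.15 and a mean of 0.92 ± 0.44 (SE, limma, adjusted p = 0.48). The remaining isoforms stayed within their errors of 0: Cox7a2l, a factor that joins complexes III and IV into larger assemblies, was at 0.40 ± 0.41 (SE), Cox6b2 at -0.20 ± 0.50 (SE) and the dim Cox7b2 at -0.21 ± 0.32 (SE). Cox6b1 and Cox7a1 were not among the names matched and were not analysed here.

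For complex V, the ATP synthase, the median log2 ratio was 0.16, at 0.20, 0.44 and -0.16 in preparations 1, 2 and 3. The 0.16 was the smallest among the complexes as taken by name, but this order turned with subunits only. The subunits of complex IV then had the smallest median, 0.146, against 0.156 for those of complex V. The genes of the catalytic head differed among themselves. Atp5b, the β subunit where ATP is made, read 11.33, 10.79 and 11.56 in replicating and 10.39, 9.21 and 10.69 in quiescent cells. All replicating values lay above all quiescent values, and the ratios of 0.94, 1.58 and 0.87 were the most even of the genes that met the selection. The log2 ratio of Atp5b was 1.13 ± 0.34 (SE, 2.19-fold), with an unadjusted limma p of 0.020, the smallest p of the 91 genes. Atp5a1, the α subunit of the same head, read 13.32, 12.55 and 13.19 against 13.16, 11.54 and 13.51, lower in the replicating cells of preparation 3 (log2 ratio 0.29 ± 0.39 SE, limma, adjusted p = 0.73). Whether the 2 subunits differed in their ratio was not tested.

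Atp5c1, the γ subunit that turns inside the head, read 9.16, 7.79 and 9.08 in replicating and 7.74, 6.30 and 8.77 in quiescent cells. The replicating cells were higher in each preparation, while both arrays of preparation 2 were low and the groups overlapped. Its log2 ratio was 1.08 ± 0.39 (SE), with an unadjusted limma p of 0.038. Atp5j, the F6 part of the peripheral stalk and the highest ratio of the complex, read 12.41, 12.12 and 12.20 against 11.47, 8.57 and 12.29. The log2 ratio of Atp5j was 1.47 ± 0.74 (SE, limma, adjusted p = 0.48), at 0.94, 3.55 and -0.09 in preparations 1, 2 and 3.

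The ring of c subunits is encoded by a family of genes whose products have the same mature sequence. Atp5g1, Atp5g2 and Atp5g3 had log2 ratios of -0.20 ± 0.31, 0.22 ± 0.32 and -0.40 ± 0.38 (SE). Atp5g1 was lower in the replicating cells of each preparation, by 0.19, 0.11 and 0.29 on the log2 scale, and none of the 3 met the selection. Atp5s, called coupling factor B and named Dmac2l in RefSeq, was the lowest of the names beginning Atp5, at 8.39, 8.63 and 8.44 in replicating and 7.91, 10.23 and 9.89 in quiescent cells. The order turned between preparation 1 and the other 2 (log2 ratio -0.86 ± 0.52 SE, limma, adjusted p = 0.50).

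**Figure D3:**
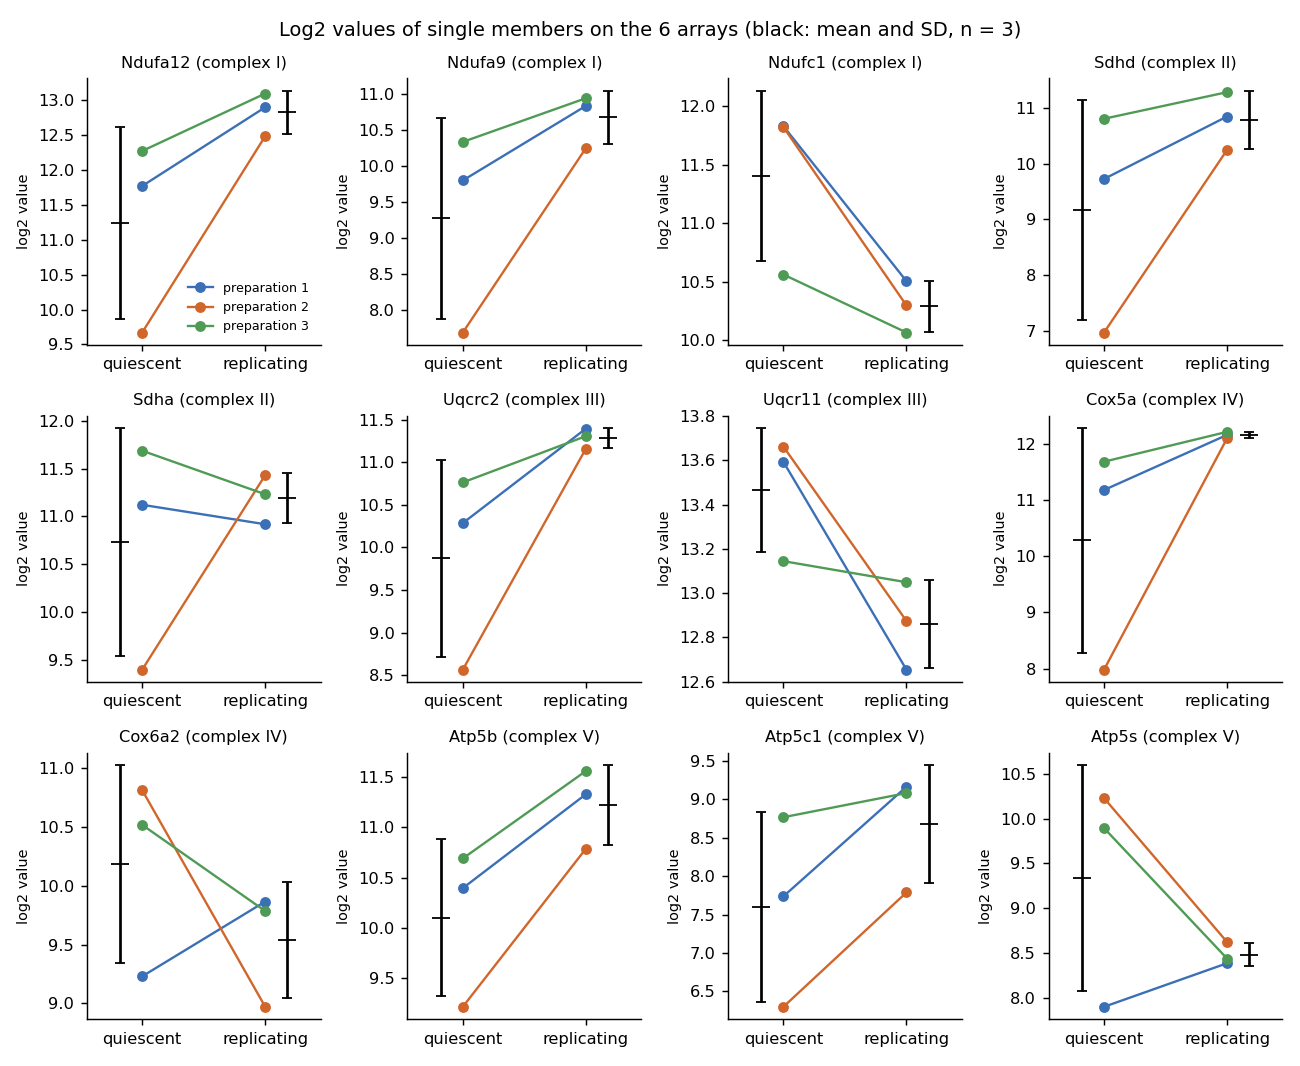
Log2 values (y axis) of 12 members in quiescent and replicating cells (x axis), with a line for each islet preparation and the mean ± SD (n = 3) in black beside each group. Lines of preparation 2 (orange) start lowest for the genes with the largest ratios and not for Ndufc1, Uqcr11, Cox6a2 and Atp5s.

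Promoters are shown of 4 of the 6 genes that were higher by the selection, and of Ndufc1, which was lower, for contrast. RefSeq genes of the build GRCr8 matched all 91 names, 85 of them by accession, and a promoter sequence was found for 77. The 250 bases before the start of transcription were searched on both strands for the letters of 4 motifs known from such genes: GCGCA and GCGC with any 1 base between them for NRF1, CCGGAAG for GABP, AAGATGGCG for YY1 and CAAGGTCA for ERR. These motifs do not overlap in the sequences shown. Capitals mark a match on either strand.
Ndufa12, GRCr8 chr7:30658066-30658315, plus strand: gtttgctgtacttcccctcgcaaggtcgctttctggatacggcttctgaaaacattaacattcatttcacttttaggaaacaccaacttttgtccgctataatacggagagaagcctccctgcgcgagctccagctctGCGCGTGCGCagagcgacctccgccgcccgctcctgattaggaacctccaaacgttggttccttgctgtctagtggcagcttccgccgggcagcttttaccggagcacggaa
Sdhd, GRCr8 chr8:59850642-59850891, minus strand: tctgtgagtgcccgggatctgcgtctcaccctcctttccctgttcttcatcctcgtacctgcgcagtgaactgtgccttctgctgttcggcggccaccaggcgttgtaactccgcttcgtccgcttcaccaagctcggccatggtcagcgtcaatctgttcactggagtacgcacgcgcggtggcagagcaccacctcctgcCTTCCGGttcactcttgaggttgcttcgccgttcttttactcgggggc
Uqcrc2, GRCr8 chr1:184598990-184599239, plus strand: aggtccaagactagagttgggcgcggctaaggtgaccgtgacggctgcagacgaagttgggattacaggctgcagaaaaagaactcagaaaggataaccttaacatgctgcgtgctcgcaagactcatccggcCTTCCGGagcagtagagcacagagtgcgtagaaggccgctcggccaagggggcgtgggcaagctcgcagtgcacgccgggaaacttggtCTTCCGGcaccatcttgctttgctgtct
Atp5b, GRCr8 chr7:1099808-1100057, plus strand: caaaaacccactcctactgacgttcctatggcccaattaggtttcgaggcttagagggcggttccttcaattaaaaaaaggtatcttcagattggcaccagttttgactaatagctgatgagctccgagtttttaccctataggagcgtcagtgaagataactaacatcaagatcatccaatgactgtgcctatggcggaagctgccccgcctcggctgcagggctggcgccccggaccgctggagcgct
Ndufc1, GRCr8 chr2:137601736-137601985, minus strand: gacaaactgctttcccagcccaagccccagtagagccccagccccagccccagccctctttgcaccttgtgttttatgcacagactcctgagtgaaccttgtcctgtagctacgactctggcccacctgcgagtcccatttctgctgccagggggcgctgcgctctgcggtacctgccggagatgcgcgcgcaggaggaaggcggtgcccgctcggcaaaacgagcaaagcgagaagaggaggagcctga

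Sdhd held 1 GABP match and Uqcrc2 held 2, Ndufa12 held 1 NRF1 match, and Atp5b, named Atp5f1b in RefSeq, and Ndufc1 held none of the 4. The promoters of Ndufa9 and Atp5c1, which are not printed, held none either. Among the 77 promoters 19 (24.7%) held the GABP letters, against 7.27% of all 33469 promoters in the table. The NRF1 letters were in 13 (16.9%) against 3.75% of all promoters. Matches of YY1 were in 1 (1.3%) against 0.693%, and of ERR in 2 (2.6%) against 1.33%. The letters CCAAT, searched in the same way, were in 24 (31.2%) against 34% of all promoters. The 77 promoters were richer in G and C, with a median of 56.4% against 51.2% in all. The median log2 ratio was 0.74 for the 19 genes with GABP letters and 0.23 for the 58 without, and 0.22 for the 13 with NRF1 letters and 0.29 for the 64 without. In preparation 2 the medians with and without GABP letters were 1.62 and 0.57. In the mean of preparations 1 and 3 they were 0.15 and -0.002, and 0.02 and 0.03 with and without NRF1 letters. These counts describe letters and not binding.

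For 28 of the 91 genes the array held several probes, which show how far a ratio depends on the probe. Some probes of a gene share most of their bases, so that their agreement is not independent. Those of Cyc1, for example, lie at rn4 chr7:114396502-114396561 and chr7:114396499-114396558. The probes of Ndufb3 are given on opposite strands. In 17 of the 28 all probes gave a ratio of the same sign, and in 11 they did not: Atp5e, Atp5h, Cox6c-ps1, Ndufa10l1, Ndufab1, Ndufaf2, Ndufaf4, Ndufaf7, Ndufb3, Ndufv3 and Uqcr11. The median distance between the highest and lowest probe of a gene was 0.35 log2 units in preparation 1, 0.81 in preparation 2 and 0.24 in preparation 3. Probes of Ndufab1 and Uqcr11, which disagreed in sign, are shown by their first 30 of 60 bases, with positions on rn4 as the array files give them.
Ndufab1, first probe, rn4 chr1:180912828-180912887, minus strand: aattcctgatatagatgcagagaagttaat
Ndufab1, second probe, rn4 chr1:180908331-180908390, minus strand: acctcagctacctaagaagttcaaagtcaa
Uqcr11, first probe, rn4 chr7:10819606-10819665, plus strand: atcaatggcaagtttaagaaggacgattag
Uqcr11, second probe, rn4 chr7:10819990-10820049, plus strand: tggatatgttgctaatgttggtggcttgtg

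Ndufab1, the mitochondrial acyl carrier protein, read 10.65, 10.19 and 10.98 against 10.06, 7.21 and 11.09 on its first probe. On its second probe it read 7.99, 7.76 and 7.78 against 8.13, 9.66 and 8.09. Quiescent array 2 was thus the lowest on 1 probe and the highest on the other, with ratios of 2.98 and -1.90 in preparation 2. For Uqcr11 the log2 ratio was -0.61 ± 0.35 on the first and 0.35 ± 0.42 (SE) on the second probe. The pair of Cox5a agreed in sign, at 1.88 ± 0.77 and 1.04 ± 0.49 (SE). The probes of Cox6c-ps1 may also read Cox6c, of which it is a processed copy, and its ratios in preparation 2 ran from -4.55 to 0.72. The genes that met the selection each had a single probe, so that none of them was read from a second place.

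**Figure D4:**
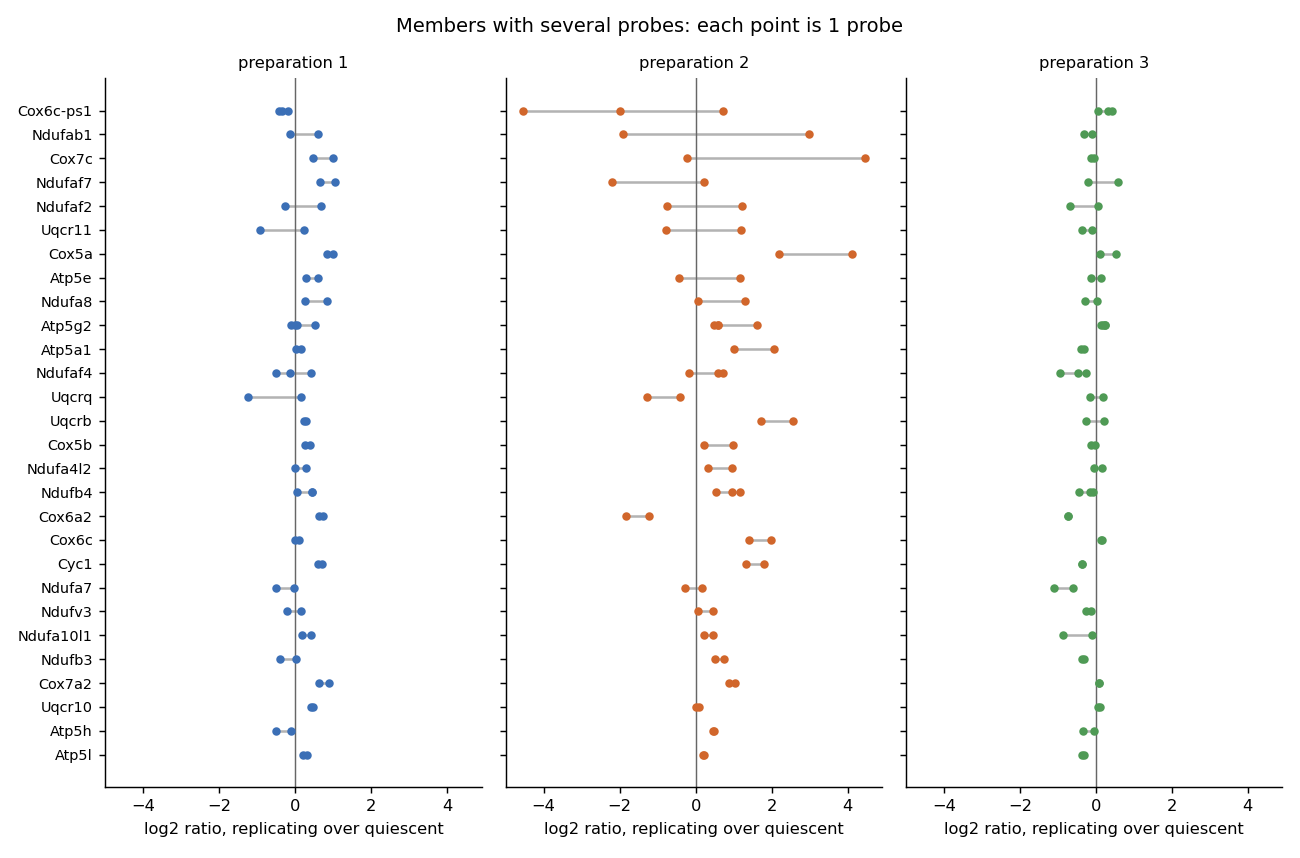
Log2 ratio of replicating over quiescent cells (x axis) on each probe of the 28 genes with several probes (y axis, ordered by the distance in preparation 2), in 3 panels by preparation. Points of 1 gene lie widest apart in preparation 2, up to 5.27 log2 units for Cox6c-ps1.

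The base composition of the probes moved with the ratio over the whole array, but more weakly than among the bright probes. Over all 45598 probes the G and C share correlated with the ratio at -0.188, -0.174 and 0.173 in preparations 1, 2 and 3. Probes with up to 35% G and C had median ratios of 0.30, 0.21 and -0.15. Probes with over 50% had -0.23, -0.37 and 0.05. Among the 9167 probes with a mean log2 value above 10, those with up to 35% G and C had median ratios of 0.44, 1.5 and -0.25 in preparations 1, 2 and 3, and those with over 50% had -0.37, -0.49 and 0.12. The correlation of the G and C share with the ratio over these probes was -0.24, -0.357 and 0.245, as a description of probes that share the same 6 arrays. The same correlation over the 91 genes was -0.25, -0.198 and 0.253. The 91 genes were not limited by brightness, and 31 of them had a mean of 10 or less. In the 43 genes whose probe held over 40% and up to 45% G and C the median ratios were 0.24, 1.02 and -0.14, against 0.003, 0.13 and -0.005 in the 3873 probes of the array in that band with a mean above 10. The other bands differed from this in preparation 2: the median of the 15 genes with up to 35% was 0.93 against 1.5 in the bright probes, and that of the 15 with over 35% and up to 40% was 1.24 against 0.57. In the 5 genes with over 45% and up to 50% it was -0.19 against -0.15, and in the 13 with over 50% it was 0.72 against -0.49. The part of base composition in the ratios of single genes was not tested.

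Other mitochondrial genes were read from lists of the same pathway. Against 4.38% of all probes that were higher by the selection, each list counted as follows. Of the 37 assembly factors outside the name patterns, 0 met the selection in either direction, and their median ratios were 0.23, 0.26 and -0.19 in preparations 1, 2 and 3. Of the 17 genes of the tricarboxylic acid cycle and its entry, 2 were higher, pyruvate carboxylase (Pc, log2 ratio 1.54 ± 0.38 SE) and the pyruvate dehydrogenase subunit Pdhb (1.47 ± 0.36 SE), and 0 were lower. The list had median ratios of 0.74, 1.54 and -0.06. Of the 9 genes for cytochrome c, the carriers and the uncoupler, 1 was higher, the uncoupler Ucp2 (1.39 ± 0.38 SE). Of the 18 regulators of mitochondrial gene expression, 1 was higher, Gabpa (1.07 ± 0.35 SE), which encodes a subunit of GABP. Of the 12 genes of mitochondrial import 2 were higher, the inner membrane translocase subunits Timm17b (1.79 ± 0.39 SE) and Timm9 (1.52 ± 0.44 SE). Of the 70 mitochondrial ribosomal proteins 3 were higher, Mrps5 (2.06 ± 0.76 SE), Mrps12 (1.76 ± 0.55 SE) and Mrpl43 (1.21 ± 0.35 SE), a share near that of all probes. Of these lists none held a gene that was lower by the selection, and each gene named from them had an adjusted limma p of 0.483. Like the chain, all 6 lists had their highest median ratio in preparation 2 and a median below 0 in preparation 3.

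**Figure D5:**
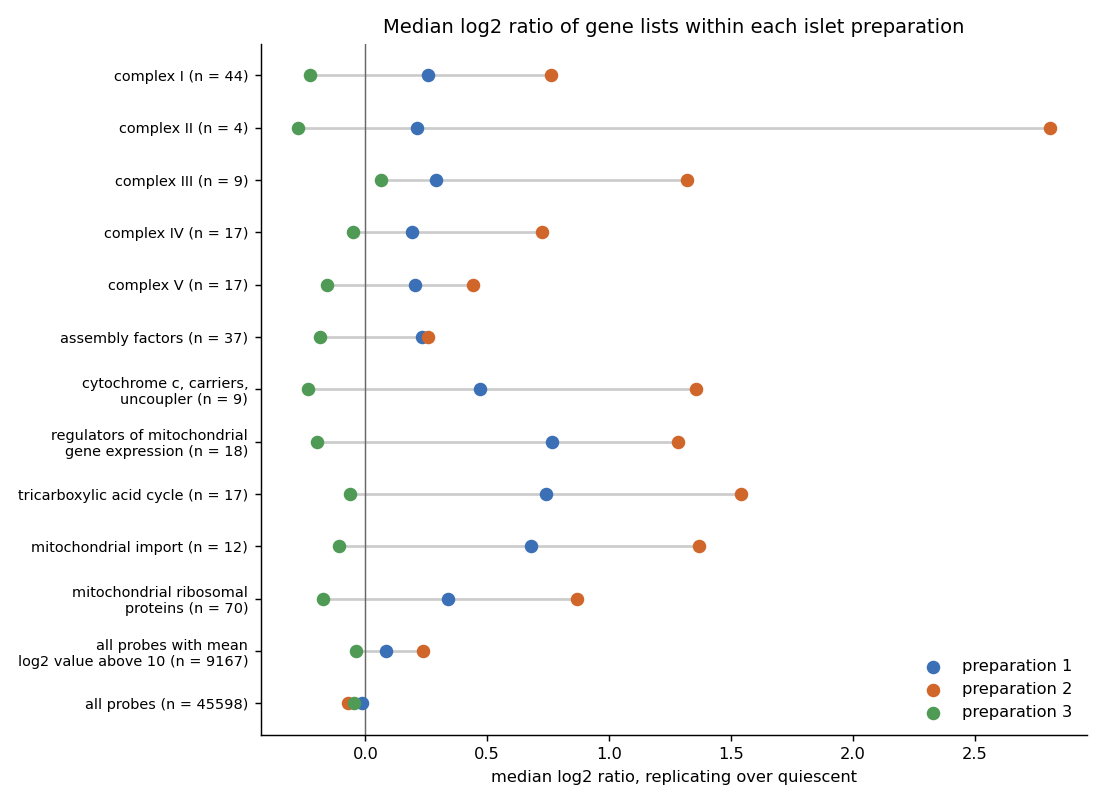
Median log2 ratio of replicating over quiescent cells (x axis) for the 5 complexes, the other mitochondrial lists and all probes (y axis), with 1 point per islet preparation. In the complexes and the mitochondrial lists the order is preparation 3, 1, 2, and the medians of all probes lie near 0 in each preparation.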

How the data were processed

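Global gene expression was measured on 6 single-colour Agilent arrays, 3 of replicating and 3 of quiescent β-cells. The authors amplified the RNA, labelled it with Cy3 and read the arrays with Feature Extraction 10.7.3.1, and they deposited each spot's intensity as scanned. A value table of log2 levels was deposited too, made by the authors with normexp and quantile normalization. It was checked against the same steps run on the intensities, with an offset of 50 (Spearman's rho 1, largest difference 0.000245).

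Here the deposited log2 values were used. Control spots were dropped and repeated spots averaged, which left 45598 probes. All were tested in R 4.3.3 by limma 3.58.1, with a block for the preparation as the methods of the study have it, and p-values were adjusted over all probes by Benjamini-Hochberg. The pairing comes from the labels, where each preparation gave 1 sample of each fraction (correlation of deviations within pairs 0.055, 0.233 and 0.252). Between arrays of different preparations it ran from -0.308 to 0.167. Replicating array 1 correlated more with quiescent array 3 (0.167) than with its own quiescent array 1. The titles number the third preparation 3 and the descriptions 4. With 3 arrays a group, their number limits the precision.

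The members, gene lists and motifs were chosen with earlier results of these data known. Named by rule were members that met the selection, the highest and lowest of each complex, complex II, the core subunits of complexes I, III and V, isoform families and members whose probes disagreed in sign. Alternatives were other background corrections and scalings, a filter on dim probes, outlier spots left out, no block, a variance trend, array weights, the median over probes, leaving out each preparation and subunits only. Leaving preparation 2 out of the count of ratios above 0 and of the medians by motif, and the bands of probe base composition, were chosen after seeing the data. The sequences of 1 pair of probes and the comparison within that pair are not reported here.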

Additional observations from a re-analysis of the deposited data

How the results depend on the processing

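Leaving out 1 preparation turned the sign of 3 medians. The median log2 ratio of the 91 genes ran from -0.000913 to 0.479 over the 3 such fits, of complex I from 0.00558 to 0.504, of complex II from -0.0468 to 1.68, of complex III from 0.234 to 0.829, of complex IV from 0.113 to 0.339 and of complex V from -0.0778 to 0.238. The values without preparation 2 were -0.000913 for all, -0.0468 for complex II and -0.0778 for complex V, and were the lowest in each of these. The genes higher by the selection ranged from 0 to 14 and those lower from 0 to 1. Without the block for the pairing of samples in a preparation, 2 genes were higher, against 4.09% of all probes. With Feature Extraction's processed signal scaled to the 75th percentile, 0 were higher, against 1.42% of all probes. With array weights 33 of the 91 genes passed an adjusted limma p of 0.05, and so did 23734 of all 45598 probes. But the weights were 8.5 for both arrays of preparation 1 and 0.299 and 0.394 for those of the others. The fit with array weights thus rests on 1 preparation. The cause of the other changes was not tested. The median of all probes moved to -0.736 with the processed signal and to -0.406 with normexp at the 75th percentile, and the split of higher to lower probes from 1997 and 1887 to 647 and 3071 and to 1480 and 5498. The median of the 91 genes stayed above 0 in both, at 0.256 and 0.249.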
